A study of Homo sapiens with 12 samples.

Results

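The genes described here are 46 genes of cell division with the kinase gene VRK1 among them. The choice was a list of symbols and used no threshold on a measured value, but it was made with earlier results of these data known. They are 46 of 24559 gene symbols in the polysomal RNA table, and all 46 were among the 16538 genes tested. Polysomal RNA is the mRNA that sediments with several ribosomes in a sucrose gradient. It was sequenced in 12 libraries from 3 established human triple-negative breast cancer cell lines, 2 libraries in each of 6 groups. MDA-MB-231 and SUM159 cells carried either a GIPZ lentiviral shRNA plasmid against TRMT112 (KD) or its non-silencing control (EV). BT549 cells carried either a TRMT112 open reading frame in an expression plasmid (OE) or the empty plasmid (EV). TRMT112 is the small activator protein of several RNA and protein methyltransferases, and the comparisons ask how its level changes which mRNAs are on polysomes. Cells with the GIPZ plasmids were selected with puromycin and cells with the expression plasmids with G418. All cells were harvested below confluence after cycloheximide, which holds ribosomes on mRNA. Each line with its own plasmid stands for 1 engineered population, and the labels do not say that the 2 libraries of a group came from separate cultures. The p-values therefore measure the spread between these libraries, which may be technical.

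Mitosis begins when cyclin B bound to CDK1, helped by the CDC25 phosphatases and by the Polo and Aurora kinases, drives the cell past the end of G2. Microtubules then attach to chromosomes at kinetochores, a checkpoint holds anaphase until every kinetochore is attached, and the anaphase-promoting complex with CDC20 releases sister chromatids by destroying securin and cyclin B. VRK1 is a nuclear kinase of the vaccinia-related kinase family that phosphorylates the barrier-to-autointegration factor (BAF, encoded by BANF1) and thereby loosens the nuclear envelope from chromatin. Most of these genes are transcribed as a wave late in the cell cycle by FOXM1 and the MYB-MuvB complex, and many of their promoters carry a cell cycle homology region (CHR) next to CCAAT boxes. A bulk measurement cannot tell fewer cells in mitosis from less of the mRNA in each cell. The total RNA of the same cells was not analysed here, so a change in mRNA amount and a change in its loading on polysomes cannot be told apart either. The values are also relative to the other polysomal RNA of each library. The paper reports smaller polysome peaks in KD and larger ones in OE, so amounts per cell are not measured here. Genes said to fall or rise below did so relative to the other genes.

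The library totals ranged from 22954226 to 27434677 expected counts, and the lowest count of any of the 46 genes in any library was 136 (CENPE). Values below are counts normalised by the trimmed mean of M-values (TMM) unless another unit is named, and "called" means an adjusted p under 0.05 in edgeR's quasi-likelihood test over all genes tested. TRMT112 itself followed the labels. It stood at 4132 and 3924 in MDA-MB-231 EV against 1758 and 1676 in KD. In SUM159 it stood at 6310 and 6543 in EV against 3895 and 3686 in KD. BT549 EV had 3065 and 3076 against 4271 and 4305 in OE. The reduction was larger in MDA-MB-231 than in SUM159 (difference of the log2 fold changes −0.47 ± 0.06 SE, adjusted p = 1.83e-07). Several members overlap other genes that averaged 50 counts or more. Among them, CENPA, BUB1B, NUSAP1 and PRC1 share exon bases with another gene on the same strand, and CCNA2, CDC25C, KIF4A, KIF20A, KIF23, ANLN, SMC4, NCAPG, NUSAP1 and FOXM1 with one on the opposite strand. The strand setting of the counting is not given in the sources used here, so reads from such stretches cannot be told apart. The luminal keratin transcripts KRT8 and KRT18 were between 206 and 561 TPM (counts per length, scaled to a fixed total) in every MDA-MB-231 and SUM159 library but at 0.64 TPM or below in BT549. Transcripts of the leukocyte gene PTPRC and the endothelial gene PECAM1 reached at most 1.05 TPM in any library. CD68, from the same list of markers of other cell types, was higher, at 217 to 229 TPM in the MDA-MB-231 libraries. It was at 21.6 to 30.4 TPM in SUM159 and at 161 and 165 TPM in BT549 EV. The rest of that list, CD3E, VWF and ADIPOQ, was listed at 0 in every library.

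Promoter sequence is shown for 5 members whose values are described below, because this is the element the family is known to share. The bases are those just before the RefSeq transcription start (GRCh38.p14), ended where a GENCODE exon of the same gene begins, with CHR and CCAAT matches on either strand in capitals. CCNB1 (chr5:69167050-69167134, plus strand) and CCNB2 (chr15:59105046-59105125, plus strand) each held a pair of CCAAT boxes followed by a CHR match. BUB1 (chr2:110678064-110678163, minus strand) and CCNA2 (chr4:121823884-121823983, minus strand) held CCAAT boxes and no match to the CHR spellings searched. SPC24 (chr19:11155808-11155882, minus strand) held a CCAAT box and no CHR match.
CCNB1: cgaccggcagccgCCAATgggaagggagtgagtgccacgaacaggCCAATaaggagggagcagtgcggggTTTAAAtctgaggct
CCNB2: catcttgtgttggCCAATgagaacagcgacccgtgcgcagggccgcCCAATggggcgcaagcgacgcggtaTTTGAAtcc
BUB1: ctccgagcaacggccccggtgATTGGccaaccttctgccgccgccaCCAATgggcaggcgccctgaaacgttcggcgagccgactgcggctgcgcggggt
CCNA2: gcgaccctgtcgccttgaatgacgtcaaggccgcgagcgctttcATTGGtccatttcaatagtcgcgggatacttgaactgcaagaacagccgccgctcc
SPC24: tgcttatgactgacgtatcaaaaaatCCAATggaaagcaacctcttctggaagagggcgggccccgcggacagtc

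The RefSeq table used here held 50 promoters of 38 members, each from 250 bases before to 50 bases after the start. The CHR spellings TTTGAA and TTTAAA, read on both strands, were found in 76.0% of these promoters and in 24.0% of all 35116 promoters of the same length. CCAAT was found in 68.0% of the members' promoters and in 34.6% of all promoters. Both motifs stood together in 54.0% against 9.3%. Counted by gene, 34 of the 38 members had a CHR match, 29 had a CCAAT match and 25 had both. AURKB, BUB1, CCNA2 and SPC24 were the members without a match to these CHR spellings in any of their windows. Other spellings of the element were not searched, so it may still be present in them. VRK1, AURKA, BIRC5, BUB3, FOXM1, TPX2, TTK and UBE2C had no entry. These matches describe the letters in a window and do not show binding.

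In the EV cells the levels per length spanned a wide range. PTTG1 (securin, the inhibitor of separase) was the highest on average over the 3 EV groups, at 514.9 TPM, followed by BUB3 at 480.4, UBE2C at 472.7 and CDC25B at 443.1 TPM. CENPE, the large kinetochore motor, was the lowest at 3.8 TPM. The order was not the same in each line: BUB3 led in MDA-MB-231 EV (845 to 873 TPM), PTTG1 in SUM159 EV (720.0 to 748 TPM) and CDC25B in BT549 EV (737 to 739 TPM). VRK1 stood at 59.5 and 62.0 TPM in MDA-MB-231 EV, 49.9 and 47.8 TPM in SUM159 EV and 14.4 and 14.1 TPM in BT549 EV. The plot of EV levels sets all members in this order.

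**Figure D1:**
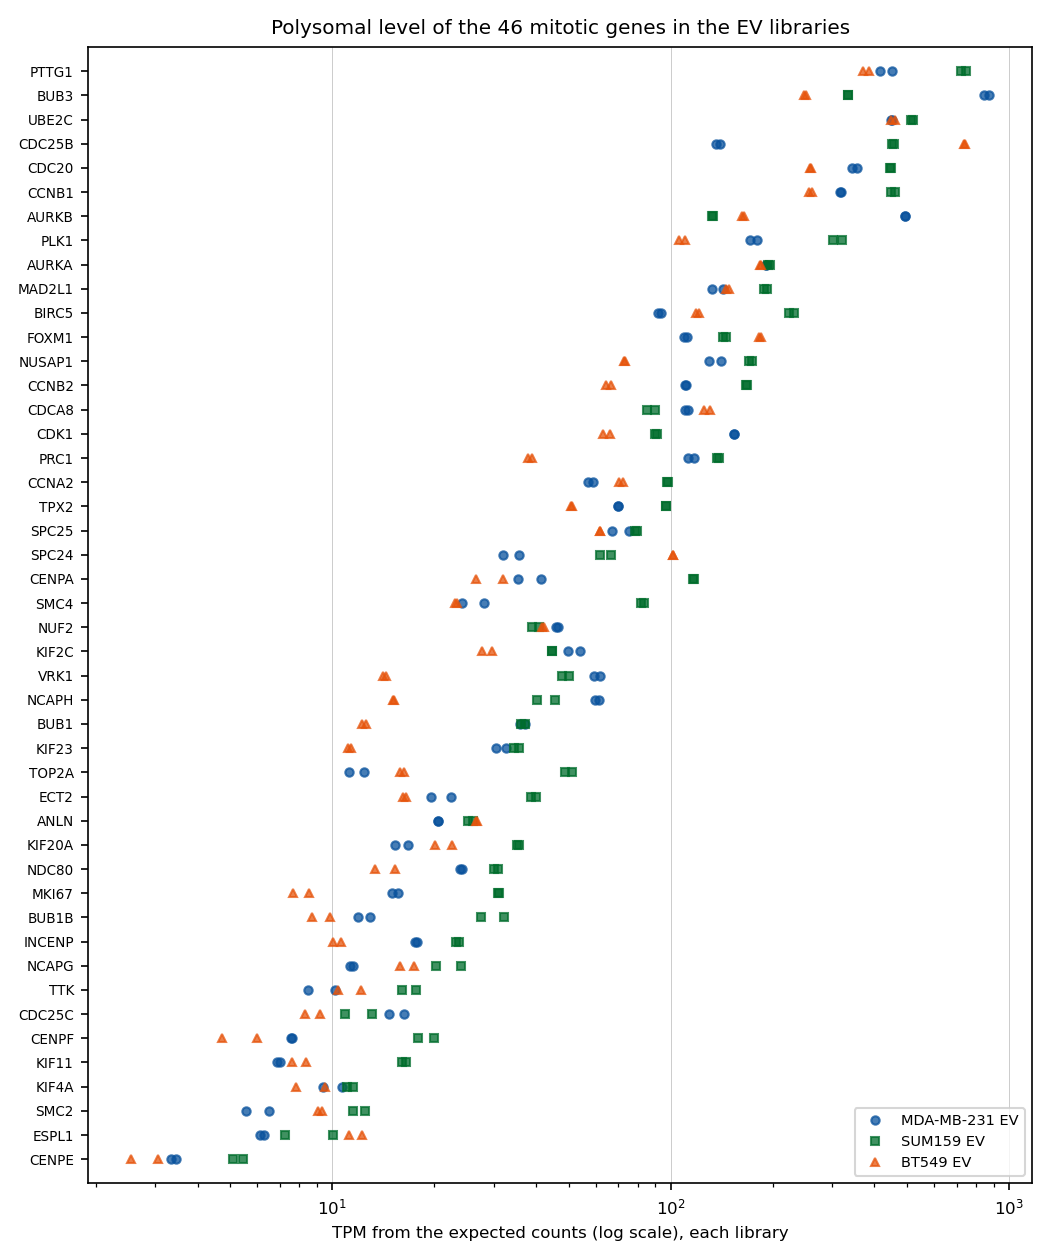
TPM of the 46 genes (log scale, horizontal) in the EV libraries, 1 point for each library, with MDA-MB-231 as circles, SUM159 as squares and BT549 as triangles. Genes are ordered by their mean over the 3 EV groups, from PTTG1 at the top (514.9 TPM) to CENPE at the bottom (3.8 TPM), and SUM159 lies to the right for most genes.

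Most mitotic genes had higher normalised polysomal counts in SUM159 EV than in MDA-MB-231 EV cells. Of the 46 members, 37 were higher in SUM159 (39.2% of all genes tested were) and 5 were lower (36.4% of all), with a median log2 difference of 0.61 against 0.03 over all genes tested. TOP2A, the topoisomerase that untangles sister chromatids, had 738 and 819 counts in MDA-MB-231 EV and 3782 and 3699 in SUM159 EV (log2 difference 2.26 ± 0.06 SE, adjusted p = 2.60e-20). The condensin subunit gene SMC4 went from 1146 and 1146 to 4875 and 4800, and CDC25B from 4571 and 4586 to 18010 and 18337. No library of one line reached into the range of the other for these genes. AURKB and BUB3 were the members with the largest differences in the other direction, at −1.68 ± 0.04 and −1.16 ± 0.03 on the log2 scale. The kinetochore and centromere genes were higher in SUM159 for 6 of 7 and the chromosome structure genes for 5 of 6.

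BT549 EV differed from MDA-MB-231 EV in both directions. Against that line, 25 members were higher (39.1% of all genes tested) and 17 were lower (40.4%), and the median log2 difference was 0.20 against −0.03 over all genes. With library size as the only scaling, 16 members were higher and 23 lower and the members' median was −0.11, while the median of all genes moved to −0.34, so no direction is given for the family in this comparison. CDC25B had the largest difference, with 32950 and 33122 counts in BT549 EV against 4571 and 4586 (log2 difference 2.85 ± 0.03 SE, adjusted p = 5.35e-28). SPC24, a subunit of the NDC80 complex, had 2996 and 2903 against 710 and 681 (2.08 ± 0.05, adjusted p = 7.50e-21). VRK1 was the member furthest below, at 370 and 353 in BT549 EV against 1119 and 1181 (−1.67 ± 0.07, adjusted p = 3.07e-16). CDC25B, SPC24 and VRK1 kept these directions under every scaling.

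Against SUM159 EV, 8 members were higher in BT549 (37.7% of all genes tested) and 32 were lower (40.7%), with a median log2 difference of −0.60 against −0.06 over all genes. MKI67, the proliferation antigen that coats mitotic chromosomes, had 1269 and 1352 counts in BT549 EV and 4360 and 4601 in SUM159 EV (−1.77 ± 0.05, adjusted p = 1.80e-20). CENPA, the centromeric histone, was lower by a like amount (−1.75 ± 0.07). SMC4 and PRC1 were also lower by 1.75 on the log2 scale, with SE of 0.04. The 3 comparisons between EV groups share their EV libraries with each other and with the KD and OE comparisons below.

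VRK1 (ENSG00000100749.9, chr14:96797304-96954846 of GRCh38, plus strand) was lower in each manipulated group than in its own EV control. In MDA-MB-231 it had 1119 and 1181 counts in EV and 716 and 745 in KD. SUM159 EV had 1095 and 1065 against 577 and 593 in KD. BT549 had 370 and 353 in EV against 276 and 301 in OE. The EV libraries were above the KD or OE libraries in every line, with the narrowest gap in BT549. The log2 fold changes were −0.66 ± 0.06 SE (adjusted p = 1.63e-08), −0.88 ± 0.07 (adjusted p = 3.32e-11) and −0.33 ± 0.09 (adjusted p = 2.42e-03), and all 3 stayed called in every refit (no log2 fold change of 1 or more was required in the refits). VRK1 thus moved the same way under KD and OE although TRMT112 moved in opposite directions. The fall under KD was called larger in SUM159 (difference 0.23 ± 0.09, adjusted p = 0.0393), a call lost in 11 of 18 alternatives and turned to −0.31 in another.

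**Figure D2:**
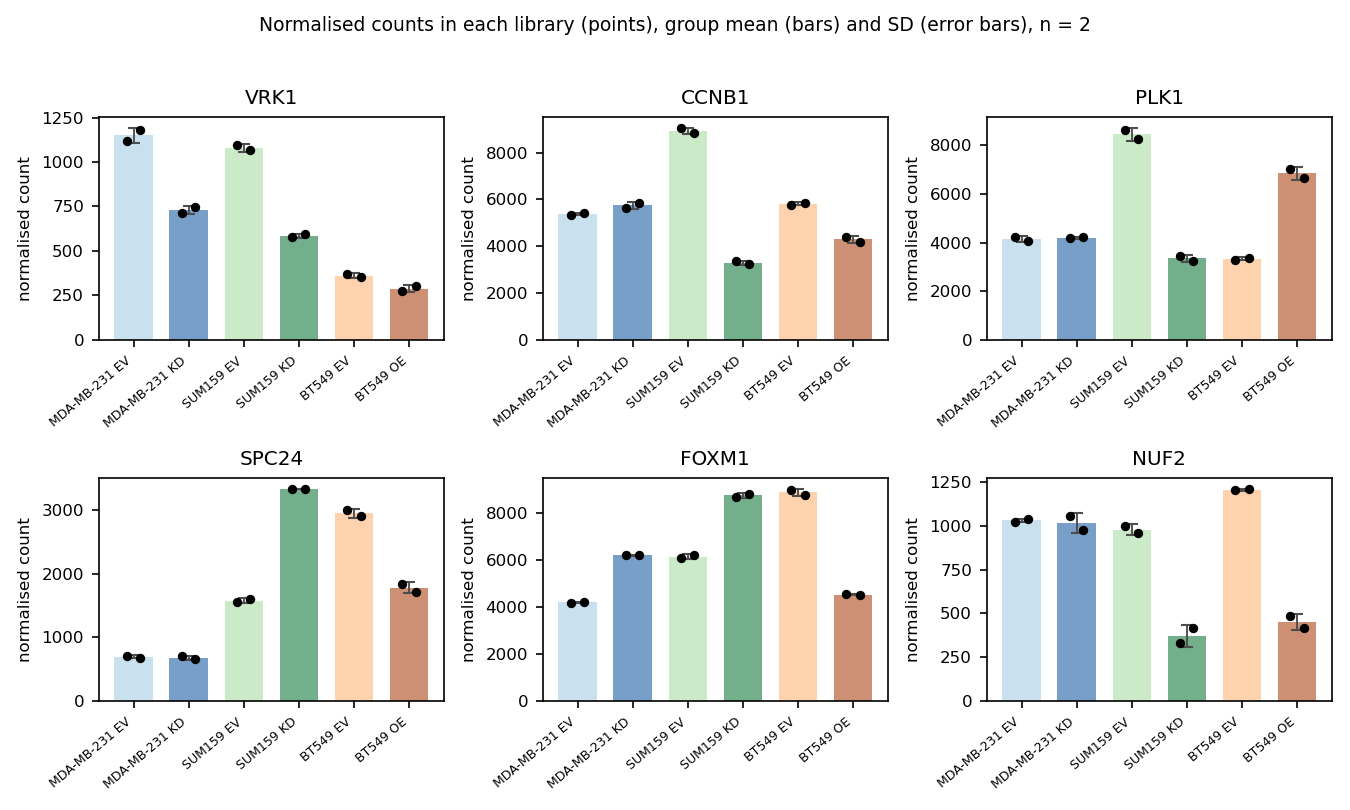
Normalised counts (vertical axis, from 0) of VRK1, CCNB1, PLK1, SPC24, FOXM1 and NUF2 in the 6 groups, with each library as a point, the group mean of 2 libraries as a bar and the SD as an error bar. VRK1 is lower in KD and OE than in the matched EV, PLK1 is lower in SUM159 KD and higher in BT549 OE, and SPC24 is higher only in SUM159 KD among these 3 comparisons.

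The VRK1 counts were an estimated split over 62 annotated transcripts, of which ENST00000216639.8 held 58.9% on average. In MDA-MB-231 this transcript had 790 and 877 expected counts in EV and 256 and 336 in KD. ENST00000680538.1, a shorter protein-coding transcript, moved the other way, from 193 and 173 to 286 and 295. The share of the main transcript was 66.1% and 67.6% in EV against 33.4% and 43.3% in KD, a change of −28.5 percentage points that was the largest fall among the 46 members in that comparison. In SUM159 the share went from 65.9% and 62.7% to 52.1% and 54.5%. In BT549 the EV libraries themselves differed widely, at 80.5% and 58.4%, and the OE libraries at 52.9% and 64.2% overlapped them. Tested alone, the main transcript gave −1.45 on the log2 scale for MDA-MB-231 KD (adjusted p = 3.78e-04) and −1.14 in SUM159 KD (adjusted p = 5.22e-04). The overlap of exons between these transcripts leaves the split uncertain.

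**Figure D3:**
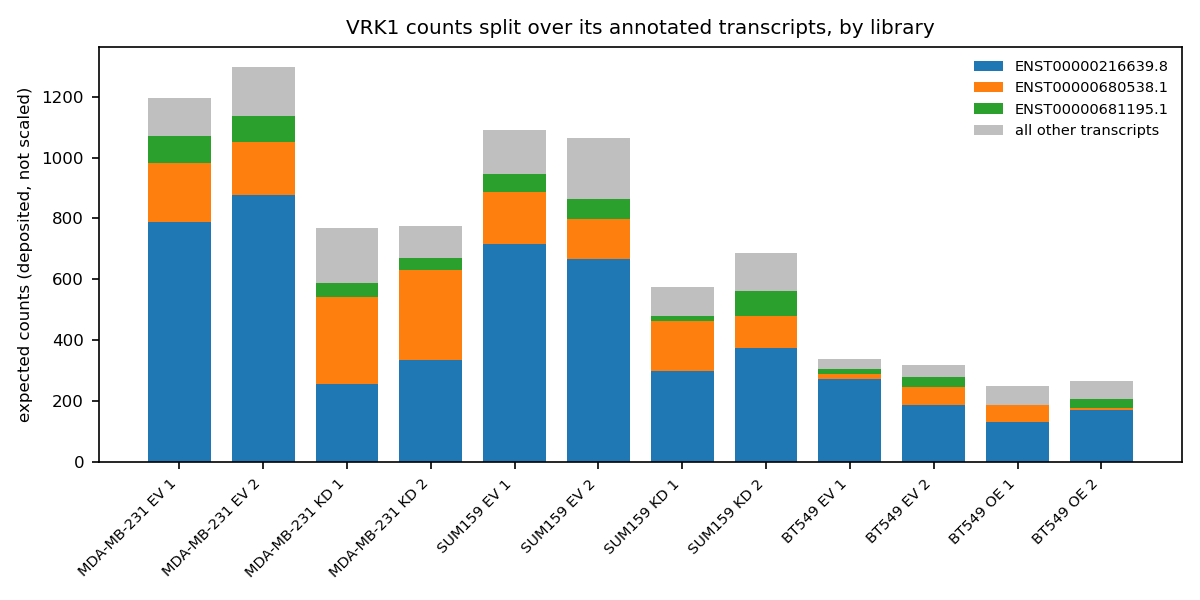
Expected counts of VRK1 as deposited (vertical axis, not scaled for depth) in each of the 12 libraries, stacked by annotated transcript, with the main transcript at the base. In MDA-MB-231 KD the main transcript is lower (256 and 336 against 790 and 877) while ENST00000680538.1 above it is higher.

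Changes past 1 on the log2 scale were few in MDA-MB-231 KD, among the mitotic genes and among all genes. Of the 46 members, 8 were higher (21.2% of all genes tested were called higher) and 17 were lower (16.5% were called lower). No member passed a log2 fold change of 1 in either direction, where 264 higher and 266 lower genes did among all 16538 tested. The median log2 fold change was −0.04, against 0.00 over all genes. VRK1 had the largest change of all members in this comparison. NDC80, which binds microtubules at the kinetochore, had 588 and 581 counts in EV and 399 and 375 in KD (−0.59 ± 0.10 SE, adjusted p = 3.60e-05), and CENPE had 275 and 240 against 176 and 185 (−0.51 ± 0.11, adjusted p = 7.81e-04). For both genes every KD library was below every EV library. FOXM1, the transcription factor of the late cell cycle genes, rose from 4190 and 4225 to 6217 and 6196 (0.56 ± 0.03, adjusted p = 1.51e-12). ANLN, the actin and septin scaffold of the cleavage furrow, rose from 1072 and 1069 to 1393 and 1478 (0.42 ± 0.05, adjusted p = 1.06e-06).

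By role, the MDA-MB-231 KD change was uneven. Of the chromosome structure genes 4 of 6 fell (SMC2, SMC4, NCAPG and NCAPH, all condensin subunits) and MKI67 rose. Of the kinetochore and centromere genes 3 of 7 fell and none rose. Of the entry kinases, cyclins and phosphatases, VRK1 and CDC25B fell, CCNB1 rose and the remaining 6 were not called, PLK1 among them (4252 and 4074 against 4172 and 4216, log2 fold change 0.01 ± 0.04). The 46 genes took 0.493% and 0.498% of the matched counts of the EV libraries and 0.478% and 0.475% of those of the KD libraries, while their summed normalised counts were 105673 and 106355 in EV and 109026 and 107931 in KD. The side on which the sum falls therefore depends on the scaling. The counts of calls depended on it too: 12 members were higher and 16 lower with the median-ratio size factors, 5 and 23 with library size only, and 13 and 14 after offsets for transcript length and GC content. Leaving out EV replicate 1 or KD replicate 2 gave 5 higher in place of 8. Only 11 of the 25 calls were kept in every refit, and none of the 25 reached a log2 fold change of 1.

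Most mitotic genes were lower in SUM159 KD than in its EV control. Of the 46 members, 37 fell (31.4% of all genes tested did) and 5 rose (28.6% of all), and the median log2 fold change was −0.49 against 0.00. The EV libraries of SUM159 gave 0.685% and 0.686% of their matched counts to these genes, and the KD libraries 0.502% and 0.507%. All 9 entry kinases, cyclins and phosphatases and all 5 spindle checkpoint genes fell. CCNB1, the cyclin that activates CDK1, had 9032 and 8838 counts in EV and 3360 and 3236 in KD (−1.44 ± 0.03 SE, adjusted p = 4.50e-20). NUF2, the partner of NDC80, had 1000 and 957 against 329 and 416 (−1.38 ± 0.09, adjusted p = 1.50e-12). The checkpoint kinase gene BUB1 had 1664 and 1637 against 606 and 676 (−1.36 ± 0.06, adjusted p = 7.99e-15). In each of these 3 the KD libraries lay below the EV libraries. The SUM159 groups also differed in cell line markers, of which 1 rose and 3 fell among the 7 tested. KRT14 was at 7.68 and 7.61 TPM in EV and listed at 0 in both KD libraries, KRT8 went from 209 and 206 to 337 and 323 TPM, and VIM from 1863 and 1868 to 1397 and 1336 TPM. Their part in the result was not tested.

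PLK1, the Polo kinase of spindle assembly and mitotic exit, had 8654 and 8249 counts in SUM159 EV against 3457 and 3249 in KD (−1.33 ± 0.04, adjusted p = 1.08e-18). The condensin gene NCAPH had 1335 and 1287 against 575 and 546 (−1.23 ± 0.06, adjusted p = 5.05e-14). NUSAP1 and CCNA2 were the other members past a log2 fold change of −1, at −1.04 ± 0.05 and −1.02 ± 0.04. The exit and sister separation genes moved least: CDC20 fell by 0.11 and PTTG1 by 0.10 on the log2 scale, UBE2C rose by 0.15, and ESPL1 (separase) at 0.17 ± 0.09 was not called. The calls of BUB1B, CDC20, KIF23 and PTTG1 were lost in several alternatives, and UBE2C turned to −0.08 (adjusted p = 0.0129) after the length and GC offsets. After those offsets 34 members were called lower, UBE2C among them, and 4 higher. The members' median log2 fold change, −0.49 in the main fit, was −0.36 after these offsets (0.01 over all genes tested). It was −0.44 with the median-ratio size factors and with DESeq2, and −0.53 with library size only.

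SPC24 was the exception in SUM159 KD. It rose from 1555 and 1603 counts to 3339 and 3330 (1.08 ± 0.05 SE, adjusted p = 1.32e-15), while its partners in the NDC80 complex, NDC80 and NUF2, fell and SPC25 (−0.04, 1403 and 1406 against 1307 and 1413) was not called. The 4 subunits of this complex therefore did not move together. FOXM1 rose from 6086 and 6211 to 8678 and 8828 (0.51 ± 0.03, adjusted p = 3.41e-13) and BIRC5 (survivin, of the chromosomal passenger complex) from 7589 and 7471 to 9370 and 9193 (0.30 ± 0.03). The other 3 passenger genes AURKB, INCENP and CDCA8 fell.

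**Figure D4:**
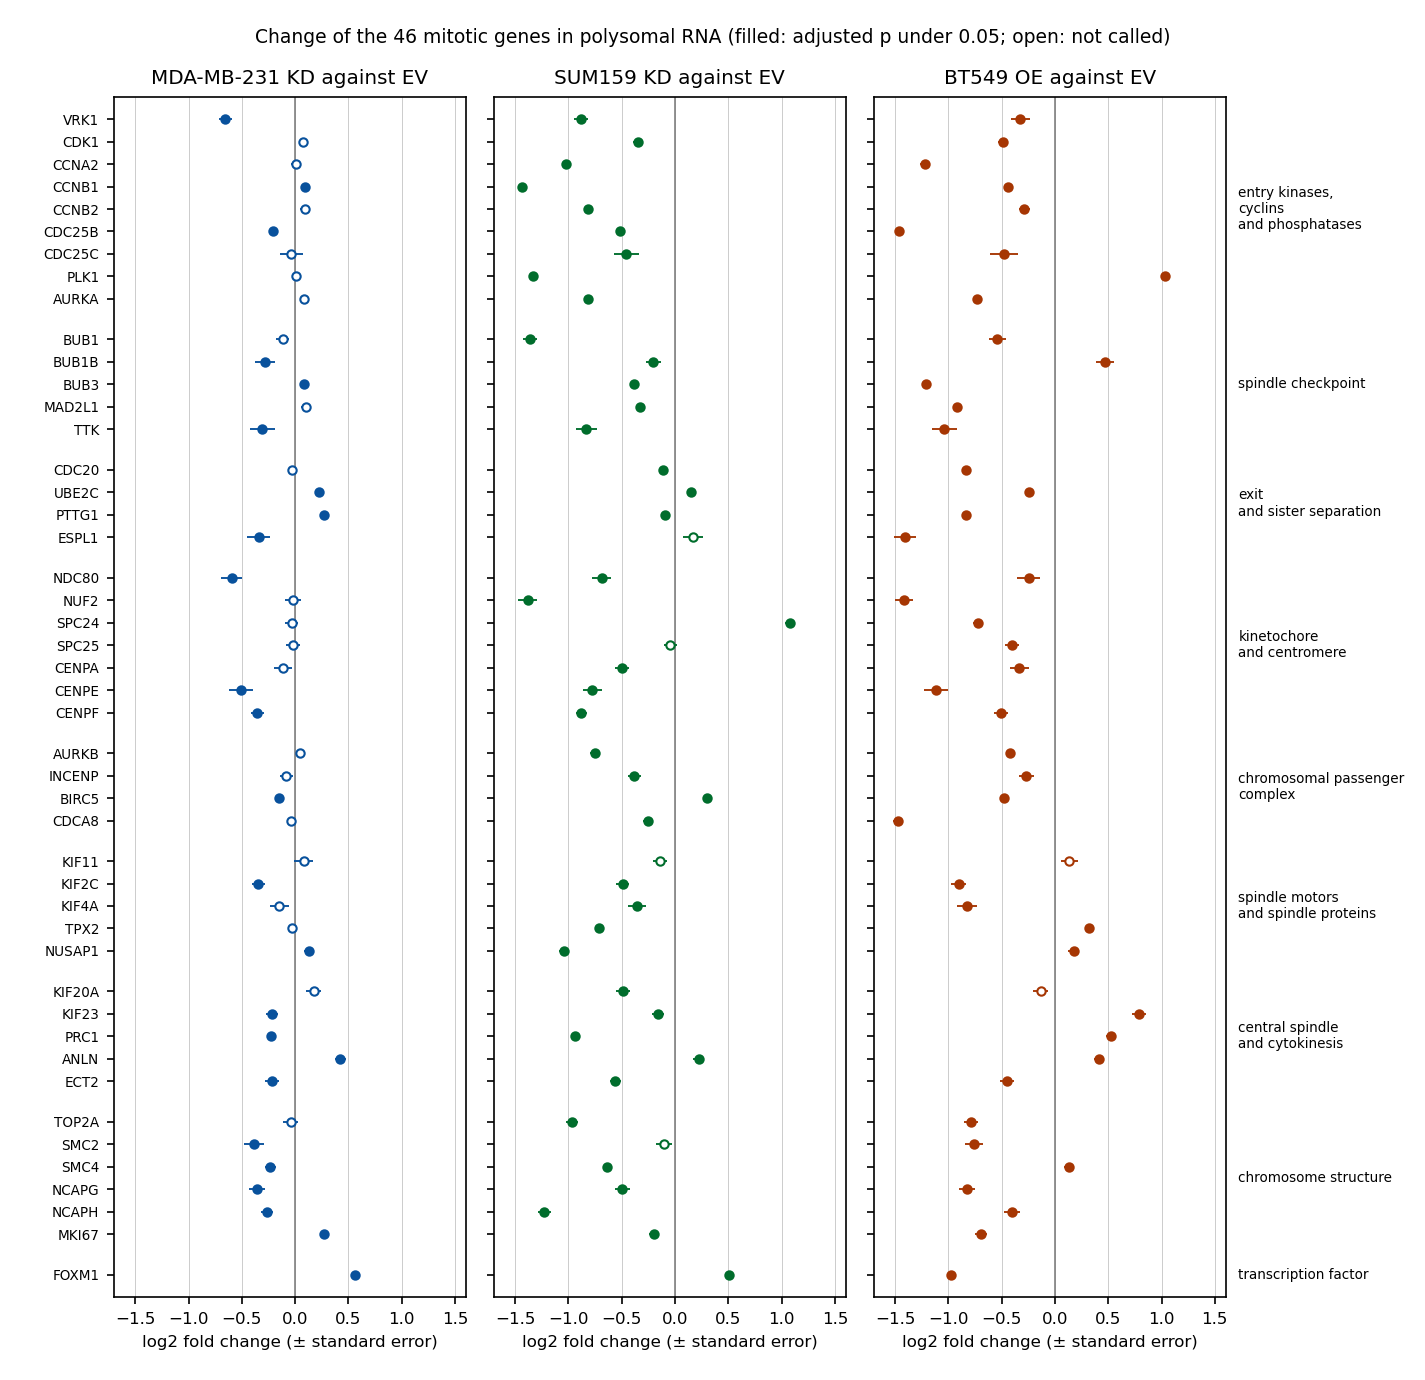
Log2 fold change of each of the 46 genes with its standard error (horizontal axis) in the 3 comparisons of KD or OE against EV, grouped by role from top to bottom, with filled points for genes called at an adjusted p under 0.05. In MDA-MB-231 the points lie between −0.66 and 0.56, in SUM159 most lie to the left of 0, and in BT549 most lie to the left of 0 with PLK1 at 1.04.

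The KD effect differed between the 2 lines, and the difference itself was tested. The log2 fold change under KD was higher (more positive or less negative) in MDA-MB-231 than in SUM159 for 30 members (27.7% of all genes tested). It was lower for 3 (23.2% of all), and the median difference was 0.38 against 0.00. The largest differences were those of CCNB1 (1.53 ± 0.05 SE, adjusted p = 2.19e-17), NUF2 (1.36 ± 0.11, adjusted p = 5.70e-10), PLK1 (1.35 ± 0.05, adjusted p = 1.82e-15), BUB1 (1.24 ± 0.09, adjusted p = 2.67e-11) and NUSAP1 (1.17 ± 0.07, adjusted p = 7.03e-13). All 5 fell in SUM159 and had log2 fold changes between −0.12 and 0.13 in MDA-MB-231. The 3 in the other direction were SPC24 (−1.11 ± 0.08), ESPL1 (−0.51 ± 0.15) and BIRC5 (−0.45 ± 0.05). All 9 entry kinases, cyclins and phosphatases had a called difference. Of the genes that fell in SUM159, 8 had no called difference between the lines, among them NDC80 (0.09 ± 0.13, adjusted p = 0.614) and CENPE (0.26 ± 0.15, adjusted p = 0.144).

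Of the 46 members, 17 fell in MDA-MB-231 KD and 37 in SUM159 KD, so many shared falls would occur even if the changes were unrelated. In all, 14 members fell in both KD lines, or 30.4% of the 46, where 7.47% of all genes tested did so. They were VRK1, CDC25B, BUB1B, TTK, NDC80, CENPE, CENPF, KIF2C, KIF23, PRC1, ECT2, SMC4, NCAPG and NCAPH. For the patterns that follow, the share over all genes tested was not counted. In the single comparisons, 21.2% of all genes tested rose and 16.5% fell in MDA-MB-231 KD. In SUM159 KD, 28.6% rose and 31.4% fell. FOXM1, ANLN and UBE2C rose in both KD lines. CCNB1, BUB3, PTTG1, NUSAP1 and MKI67 rose in MDA-MB-231 KD and fell in SUM159 KD. BIRC5 fell in MDA-MB-231 KD (2667 and 2606 against 2434 and 2309) and rose in SUM159 KD. Of the MDA-MB-231 values in this group, those of CCNB1 (0.10 ± 0.03), BUB3 (0.08 ± 0.03) and NUSAP1 (0.13 ± 0.05) were small and were lost in 5 or 6 alternatives, and BUB3 turned to −0.01 with library size only. PTTG1, at 3487 and 3767 in EV against 4461 and 4304 in KD (0.27 ± 0.04), kept its MDA-MB-231 call in every refit.

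**Figure D5:**
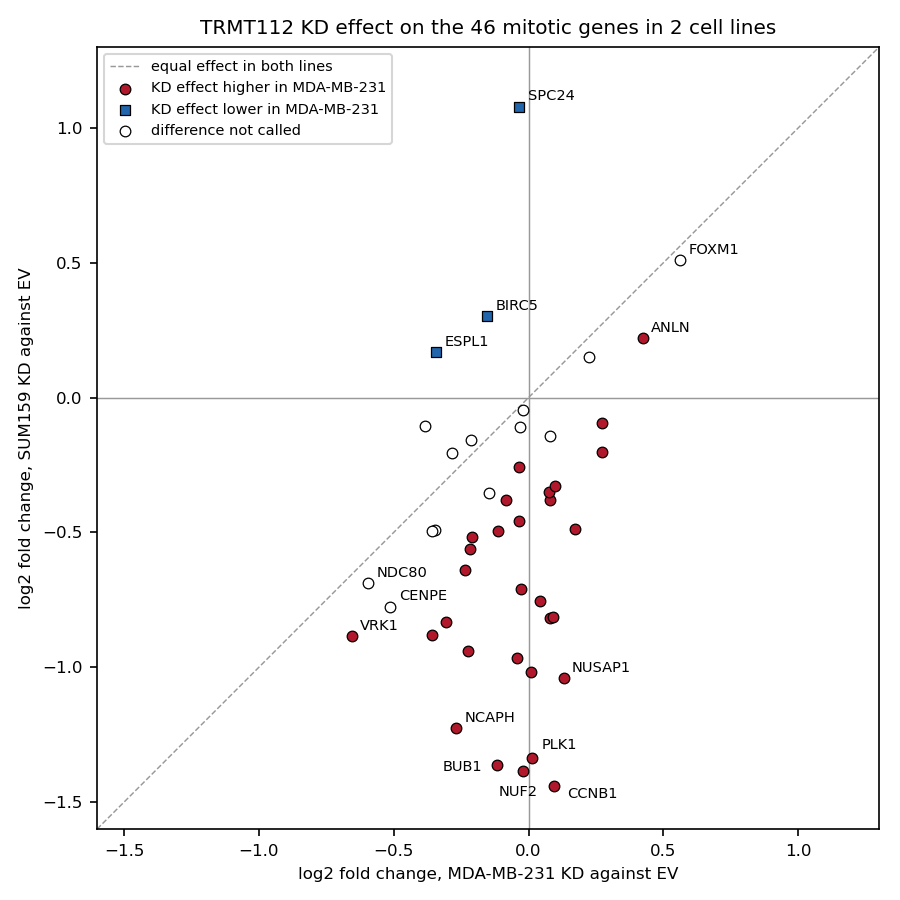
Log2 fold change of the 46 genes under TRMT112 KD in MDA-MB-231 (horizontal) and SUM159 (vertical), with a dashed line where both would be equal. Filled circles mark the 30 genes with a called higher log2 fold change in MDA-MB-231 KD than in SUM159 KD. Higher here means more positive or less negative, not a stronger effect. Squares mark the 3 with a called lower one and open circles the others. CCNB1, NUF2, PLK1 and BUB1 lie near 0 on the horizontal axis and under −1.3 on the vertical axis.

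Most mitotic genes were also lower in BT549 OE than in EV. Of the 46 members, 36 fell (35.0% of all genes tested did) and 8 rose (35.6% of all), with a median log2 fold change of −0.48 against 0.02. Each EV library gave 0.491% of its matched counts to them, and the OE libraries gave 0.315% and 0.317%. CDCA8 (borealin, of the chromosomal passenger complex) had 4731 and 4480 counts in EV and 1694 and 1634 in OE (−1.47 ± 0.05 SE, adjusted p = 2.42e-18). CDC25B, the phosphatase that starts CDK1 activation, had 32950 and 33122 against 12229 and 11778 (−1.46 ± 0.03, adjusted p = 8.03e-23). NUF2 had 1204 and 1212 against 484 and 417 (−1.42 ± 0.09, adjusted p = 3.87e-13). Separase (ESPL1) had 853 and 767 against 290 and 320 (−1.41 ± 0.10, adjusted p = 2.10e-11), and cyclin A2 (CCNA2) had 3036 and 2932 against 1261 and 1308 (−1.22 ± 0.05, adjusted p = 5.34e-17). For these 5 genes every OE library was below every EV library.

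All 7 kinetochore and centromere genes, all 4 exit and sister separation genes and all 4 passenger complex genes fell in BT549 OE (35.0% of all genes tested did). AURKB (−0.42 for the gene) was split between its transcripts: ENST00000534871.5 went from 1276 and 1334 expected counts to 473 and 474, while ENST00000585124.6, the main one, had 1025 and 900 in EV and 1106 and 1109 in OE, and tested alone it gave 0.22 (adjusted p = 0.0299). FOXM1 fell from 9000 and 8783 to 4535 and 4513 (−0.97 ± 0.03, adjusted p = 1.50e-18). The members that rose were led by PLK1, which had 3299 and 3385 counts in EV and 7043 and 6674 in OE (1.04 ± 0.04, adjusted p = 6.71e-17). KIF23, PRC1 and ANLN, which build the central spindle and the cleavage furrow, rose by 0.79 ± 0.07, 0.53 ± 0.04 and 0.41 on the log2 scale. BUB1B, TPX2, NUSAP1 and SMC4 completed the 8, and SMC4 (0.14 ± 0.05, adjusted p = 0.0153) lost its call in 3 alternatives. The rises of NUSAP1 and SMC4 were not seen per length. Mean TPM was 73.1 in EV and 72.1 in OE for NUSAP1, and 23.18 and 22.35 for SMC4. PAK6, which shares exon bases with BUB1B on the same strand, went the other way, from 1260 and 1294 counts in EV to 14.3 and 23.7 in OE. MATCAP2 also fell where the member it overlaps, ANLN, rose. Other overlapping genes rose with their members in OE: OIP5 (0.94 ± 0.07) and OIP5-AS1 (0.56 ± 0.08) with NUSAP1, KIF23-AS1 (1.425 ± 0.346) with KIF23, and TRIM59 with SMC4. EXOSC9 fell with CCNA2 (−0.51 ± 0.07) and SLC35F6 with CENPA (−0.71 ± 0.05). The part of shared reads in these calls was not tested. OE and EV libraries also differed in genes outside mitosis: VIM was at 1656 and 1674 TPM in EV and 600 and 594 TPM in OE, and CD68 at 161 and 165 against 6.18 and 6.60 TPM. Their part in the result was not tested.

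Read over the 3 lines, many members fell under KD and under OE. Of the 46, 17 fell in MDA-MB-231 KD, 37 in SUM159 KD and 36 in BT549 OE. With so many falls, large overlaps would occur even if the changes were unrelated from gene to gene. In all, 29 members fell both in SUM159 KD and in BT549 OE, or 63.0% of the 46 against 13.4% of all genes tested, and 10 fell in MDA-MB-231 KD as well (21.7% against 2.94%). These 10 were VRK1, CDC25B, TTK, NDC80, CENPE, CENPF, KIF2C, ECT2, NCAPG and NCAPH. BUB1B, KIF23, PRC1 and SMC4 fell in both KD lines and rose in OE (8.7% of the 46 against 2.99% of all genes tested), and UBE2C and FOXM1 rose in both KD lines and fell in OE (4.35% against 3.83%). The share for UBE2C and FOXM1 is close to that of all genes tested. The UBE2C rise in SUM159 KD turned to −0.08 after the length and GC offsets. The SMC4 rise in OE was not seen in TPM.

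PRC1, the bundling protein of the central spindle, had 3442 and 3556 counts in MDA-MB-231 EV against 3002 and 2996 in KD and 4781 and 4864 in SUM159 EV against 2502 and 2532 in KD. In BT549 it had 1449 and 1428 in EV against 2039 and 2104 in OE. The groups did not overlap in any line, and PRC1 kept its 3 calls in every refit, as did FOXM1, though no change of either gene reached 1 on the log2 scale. KIF23 moved by −0.21 ± 0.06 and −0.16 ± 0.06 in the KD lines, and its main transcript alone gave 0.06 in each. PLK1 was not called in MDA-MB-231 KD, but fell in SUM159 KD (−1.33 ± 0.04) and rose in BT549 OE (1.04 ± 0.04).

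Other genes of the same processes were counted in lists of their own, and no test compared these lists with the 46. Of all genes tested, 21.2% rose and 16.5% fell in MDA-MB-231 KD, and 28.6% and 31.4% in SUM159 KD. In BT549 OE 35.6% rose and 35.0% fell. Several of the list counts here and below lie near these shares. In SUM159 KD, 13 of 34 other kinetochore and checkpoint genes rose and 12 fell, with a median log2 fold change of −0.01. Of these, TRIP13, which recycles the checkpoint protein MAD2, rose by 0.54 ± 0.03. Of 28 other spindle and kinesin genes 18 fell and 4 rose in SUM159 KD, and 17 fell and 7 rose in BT549 OE. In OE, CDCA3 was at −1.48 ± 0.05, HAUS6, an augmin subunit, at −1.78 ± 0.08 and STMN1, the microtubule destabiliser, at −0.65 ± 0.03, and STMN1 rose in both KD lines (0.26 ± 0.03 and 0.45 ± 0.03). In BT549 OE the checkpoint gene MAD1L1 fell by 2.27 and SKA1 by 1.05 on the log2 scale, within a list of which 17 of 34 fell and 11 rose.

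The cohesin genes fell in SUM159 KD for 11 of 14 and rose for 2, with RAD21 at −0.80 ± 0.03, STAG2 at −0.92 ± 0.05 and CDCA5 (sororin) at 0.78 ± 0.03. In MDA-MB-231 KD 5 fell and 1 rose, and in BT549 OE 7 fell and 3 rose. The anaphase-promoting complex fell for 9 of 18 genes in each of the 3 comparisons and rose for 2, 5 and 5. CDC27 stood at −0.95 ± 0.05 in SUM159 KD, and UBE2S and ANAPC16 at −0.71 ± 0.04 and 1.20 ± 0.07 in BT549 OE. The 4 other condensin genes were mixed in every comparison, with NCAPH2 rising by 0.51 ± 0.04 in SUM159 KD, where the member NCAPH fell. Other mitotic entry genes rose for 9 and fell for 6 of 18 in SUM159 KD and rose for 4 and fell for 12 in BT549 OE. In OE, NEK2 and CKS2 fell by 1.41 and 1.09 on the log2 scale and ARPP19 rose by 1.18.

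Around VRK1, its substrate gene BANF1 moved by −0.22 ± 0.03 in MDA-MB-231 KD, 0.54 ± 0.03 in SUM159 KD and 1.24 ± 0.03 in BT549 OE, and so not in parallel with VRK1. LMNA, encoding lamins of the envelope that BAF bridges to chromatin, moved by 0.24 ± 0.04, −0.86 ± 0.03 and −0.77 ± 0.03 in the same order. PPP2R1A, a scaffold subunit of the phosphatase that reverses the marks of VRK1 on BAF, fell by 0.87 in SUM159 KD. Of the 9 genes in this list, 3 rose and 2 fell in MDA-MB-231 KD, 3 rose and 5 fell in SUM159 KD, and 3 rose and 4 fell in BT549 OE. Among the cytokinesis genes outside the 46, RHOA rose by 0.73 ± 0.03 and SEPTIN7 fell by 0.96 in SUM159 KD, within a list of 13 of which 7 fell and 3 rose. In MDA-MB-231 KD 5 rose and 2 fell, and in BT549 OE 5 rose and 8 fell, with SEPTIN2 at 0.68 ± 0.03.

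Genes of earlier cell cycle steps were counted in the same way. Of 55 DNA replication genes 29 fell and 6 rose in MDA-MB-231 KD (median −0.19), 31 fell and 12 rose in SUM159 KD (median −0.31), and 19 fell and 25 rose in BT549 OE (median 0.11). POLD1 fell by 1.45 on the log2 scale in SUM159 KD, and TYMS and RPA1 rose by 0.84 and 0.96 in BT549 OE. MYBL2 (B-Myb), which joins MuvB at the mitotic promoters, rose in all 3 comparisons, by 0.26 ± 0.04, 0.64 ± 0.03 and 0.81 ± 0.03. In BT549 OE, E2F5 was at −2.59 ± 0.11 and TFDP1 at 0.67 ± 0.03. The DREAM and MYB-MuvB regulators as a list of 19 rose for 3, 5 and 8 genes and fell for 7, 8 and 8. Of 20 p53 target genes 7, 9 and 12 fell and 6, 4 and 5 rose. CDKN1A, the cyclin-dependent kinase inhibitor p21, was at −1.67 ± 0.05 in BT549 OE, and SESN2 and GDF15 were at −2.37 ± 0.06 and −2.70 ± 0.10 in SUM159 KD.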

How the data were processed

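Polysomal RNA was measured in 12 libraries, 2 for each of 6 groups taken from the sample titles. Per the study's methods, the authors used Trimmomatic for trimming, HISAT2 for alignment to GRCh38 and SAMtools to remove duplicates. Partek is named as well. No versions, counting tool or strand setting are given in the sources used here, and the labels and the methods name different library kits. The deposited table holds expected counts for 201932 Ensembl transcripts, not normalized, and only 3.10% of values above 0 are whole. Per the file headers these columns carry sample names only. In the 8 MDA-MB-231 and SUM159 columns 5.08% of rows hold a missing mark, recorded here as unit "other" and counted as 0 (0.121% of BT549 counts lie in those rows).

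Transcripts matched to GENCODE 44 (79.6%) were summed per symbol and rounded. Genes were filtered with filterByExpr, scaled by TMM and fitted in edgeR 4.0.16 (quasi-likelihood, 1 model of 6 group means, 6 residual degrees of freedom), with Benjamini-Hochberg adjustment over 16538 genes and a threshold of 0.05. With 2 libraries a group no exact permutation test can go below 0.333. For TPM, each transcript's counts were divided by its own length, scaled to a fixed total per library and summed per symbol. With transcripts weighted by their counts, the members' median length was 2956 bases (2709 over all genes tested) and median GC content 45.6% (49.5%). Duplicates were removed without molecular identifiers, so depth covers counting error only.

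The members and lists were chosen with earlier results of these data known. All members could be named. Values in every library were planned for VRK1 and for the 5 called members with the largest change in each KD or OE comparison and in the difference of KD effects. They were also planned for members called in opposite directions and for the 3 with the largest change between EV groups. For some of these genes, NUSAP1, BUB3, MKI67 and CENPA among them, not all of these values are printed. From other lists, the 3 genes with the smallest p over these comparisons could be named, in other comparisons too. AURKB, SPC25, VIM, CD68, KRT14, PAK6 and the other named genes that overlap members were added after their values were seen. One overlapping gene is not reported here. Alternatives were RLE factors, library size only, DESeq2 1.42.0, no low-count filter, a filter at a mean of 50 counts, a replicate block, the compared libraries alone, no marked rows, the main transcript only, length and GC offsets, and each library left out, all of them refits. Counts of members, but not single calls, were also taken past 1 on the log2 scale. R 4.3.3, Python 3.11.15 and matplotlib 3.10.9 were used.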

Additional observations from a re-analysis of the deposited data

Results flagged for a closer look

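The log2 fold changes under KD of 30 members were higher (more positive or less negative) in MDA-MB-231 than in SUM159. Those of 3 were lower, by the test of the difference between the 2 lines. Differences of at least 1 on the log2 scale were those of CCNB1 (1.53), NUF2 (1.36), PLK1 (1.35), BUB1 (1.24), NUSAP1 (1.17), CCNA2 (1.03) and SPC24 (−1.11). Members called in opposite directions in the 2 lines differed by 0.48 (MKI67), 0.46 (BUB3), 0.37 (PTTG1) and −0.45 (BIRC5). CCNB1 and NUSAP1 belong to both kinds. The KD was deeper for TRMT112 in MDA-MB-231 than in SUM159, and the part of this in the differences was not tested. Groups of 2 libraries allow no check for a library far from the others.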

How the results depend on the processing

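Requiring a log2 fold change of at least 1 left 0 higher and 0 lower members in MDA-MB-231 KD, 1 and 7 in SUM159 KD, 1 and 8 in BT549 OE, 6 and 1 in the difference of KD effects, 17 and 2 for SUM159 EV against MDA-MB-231 EV, 5 and 7 for BT549 EV against MDA-MB-231 EV, and 0 and 15 for BT549 EV against SUM159 EV. Among all 16538 genes tested, 264 and 266 were left in MDA-MB-231 KD, 1204 and 1388 in SUM159 KD and 2665 and 2518 in BT549 OE. The difference of KD effects had 1285 and 1193. The EV comparisons, in the same order, had 2954 and 3146, 3557 and 3957, and 3467 and 3766. In MDA-MB-231 KD the higher members were 5 with library size only, 4 (and 8 lower) with the main transcript only and 13 with length and GC offsets. These offsets also gave 5 members with a lower log2 fold change under KD in MDA-MB-231 than in SUM159. Library size only gave 8 lower members for SUM159 EV against MDA-MB-231 EV and 16 higher for BT549 EV against MDA-MB-231 EV, and it put the median of all genes at −0.34 and −0.27 in the BT549 EV comparisons, from −0.03 and −0.06. The other alternatives, apart from leaving out libraries, left each of the 14 counts within 1.5 times. Calls of single members kept in every refit, with no log2 fold change required, were 11 of 25 in MDA-MB-231 KD, 32 of 42 in SUM159 KD, 39 of 44 in BT549 OE and 24 of 33 for the difference.

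Leaving out each library in turn gave 5 to 8 higher and 14 to 15 lower members in MDA-MB-231 KD, with 5 higher without EV replicate 1 or KD replicate 2. The ranges were 5 to 6 and 34 to 37 in SUM159 KD, 6 to 8 and 35 to 36 in BT549 OE, and 27 to 29 and 3 to 4 for the difference. With the replicate number as a block, the higher and lower members were 10 and 17, 5 and 37, and 8 and 36 in the KD and OE comparisons and 30 and 3 for the difference. Deviations of libraries with the same number correlated between −0.03 and 0.037 over all genes tested. They showed no sign of pairing by number, but counting noise in low-count genes could hide one, so pairing is not excluded.

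Single genes reversed as follows. With library size only, BUB3 was at −0.0118 in MDA-MB-231 KD. For BT549 EV against MDA-MB-231 EV this gave AURKA −0.0541, CCNB1 −0.20, CENPA −0.21, ECT2 −0.24, KIF4A −0.0562, NUF2 −0.0883, PTTG1 −0.093 and SPC25 −0.13, and against SUM159 EV AURKA −0.14 and UBE2C −0.19. With the main transcript only, ESPL1 was at 0.10 and KIF23 at 0.0603 in MDA-MB-231 KD, KIF23 at 0.0581 in SUM159 KD, AURKB at 0.22 in BT549 OE, and ESPL1 at 0.0173 and VRK1 at −0.31 in the difference. Between EV groups it gave AURKA −0.57 and NCAPH 0.0655 (SUM159 against MDA-MB-231), AURKA −0.89, CCNB1 −0.000471 and ECT2 −1.19 (BT549 against MDA-MB-231), and ANLN −0.17 and AURKB −0.18 (BT549 against SUM159). With length and GC offsets, KIF23 was at 0.0564 and UBE2C at −0.0783 in SUM159 KD, CDC20 at 0.0726 for BT549 EV against MDA-MB-231 EV, and SPC25 at 0.0946 for BT549 EV against SUM159 EV. The cause was not tested in any of these.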
